A study of Xenopus tropicalis with 192 samples.

Results

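Of the 6717 CpG sites measured in skin of the hindlimb webbing of Xenopus tropicalis, 410 (6.10%) met a rule for an early fall. Their mean methylation over frogs was lower in middle adults than in frogs under 1 year and similar in old adults. Each age was sampled in different frogs, and with every cohort weighted equally 115 of the 410 met the rule. The CpGs were chosen from measured values. Per the paper, the capture probes targeted regions holding CpGs whose methylation tracked age in earlier whole-genome data. Shares of all CpGs given below are therefore shares of that panel and not of the genome. The mean methylation fraction, the share of bisulfite reads at a CpG that still read as C, was taken over 31 young adults under 1 year (Y), 42 adults of 3.0 to 5.6 years (M) and 46 adults of 8.5 to 10.9 years (O). A CpG was kept when Y exceeded M by at least 0.04 and M and O differed by at most 0.02. CpGs with at least 3 of the 192 frogs below 0.006 and at least 3 above 0.5, a pattern that a change of the C in the germline can give, were left out. Y, M and O values of these CpGs, and all comparisons among those frogs, are therefore a description and carry no test. The limits on Y, M and O did not use 41 adults of 1.5 to 2.6 years, 26 adults of 6.9 to 7.9 years or 5 whole tadpoles. Below, these frogs are called not used by the rule or outside it, although the germline filter, which removed 5 CpGs, counted them. The tests below rest on these frogs and on strains of 1 age.

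Cytosines that precede a guanine carry most of the DNA methylation of vertebrates. Maintenance methyltransferase copies the mark onto the new strand after replication, and methylation can be lost passively with division or actively through TET enzymes. In vertebrates most CpGs outside CpG islands are highly methylated, and with age many of them drift downward while some islands gain methylation, which is what epigenetic clocks read. Such clocks are usually fitted as if each CpG moved steadily with age, and the CpGs described here are those whose fall, by the rule, lay early in adult life.

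The frogs were grouped by strain and age, and the frogs of such a cohort mostly shared a tank, so cohorts rather than frogs were taken as the units of the tests. No treatment is given for any frog. The young adults were 19 NIGERIAN F8 frogs of 269 days, 3 Xtr.Tg(cryga:GFP)Grngr frogs of 273 days and 9 SUPERMAN F8 frogs of 332 days. Cohorts of 1.5 to 2.6 years were TYR (547 days, 7 frogs), Xtr.Tg(CMV:Aequorin,GFP)NXR (726 days, 9 frogs), CMV MEM GFP (841 days, 13 frogs), OLIG2 F1 (899 days, 6 frogs) and WT Superman (937 days, 6 frogs). The middle adults were Xtr.Tg(otx2:GFP)Kellr at 1105 and at 1532 days (7 frogs each), NXR 1111 at 1507 days (17), gtpbp2 F1 KO at 1693 days (3), tubb2b GFP at 2059 days (5) and 1 frog each of sox3 F0 at 1300, Xtr.Tg(CMV:Aequorin,GFP)NXR at 1337 and tlx3 F0 at 1937 days. Cohorts of 6.9 to 7.9 years were Xtr.Tg(eef1a1:GFP)Krieg (2523 days, 5 frogs), Xtr.Et(eef1a1:GFP)cenMead (2860 days, 3) and, at 2878 days with 6 frogs each, Xtr.Et(eef1a1:GFP)folMead, Xtr.Et(eef1a1:GFP)psvbiMead and Xtr.Et(CAGGS-SB10;cryga:RFP)Mead. The old adults were Xtr.Et(CAGGS-SB10;cryga:RFP)7M8FMead at 3090 days (5), Xtr.Et(eef1a1:GFP)hbrMead at 3100 days (4), Xtr.Et(eef1a1:GFP)johMead at 3188 days (6), the Xtr.Et line ending in 8FMead, whose full name also lists CAGGS-SB10,cryga:RFP and then CAGGS:GFP, at 3301 days (5), Xtr.Tg(cryga:GFP)Grngr at 3583 days (4) and Xtr.Tg(eef1a1:GFP)Krieg at 3987 days (22). The tadpoles, used whole, were 3 Superman F9 WT at 89 days and 2 ZBTB14 KO at 177 days. Most ages were held in 1 strain and 1 tank, so age, strain and tank cannot be told apart, and a punch of webbing holds several cell types whose shares were not measured. Methylation at these CpGs offers no marker against which the labelled tissue could be checked.

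The libraries were sequenced on 2 lanes. All 31 young adults were on lane 2 and all 46 old adults on lane 1, so lane and age cannot be told apart between those groups. Both lanes held frogs of the groups between them. At the early-falling CpGs the middle adults averaged 0.671 on lane 1 (20 frogs) and 0.657 on lane 2 (22 frogs), and the 6.9- to 7.9-year adults 0.659 and 0.660. The widest gap between lanes was among the 1.5- to 2.6-year adults, at 0.714 on lane 1 (15 frogs) and 0.680 on lane 2 (26 frogs). In all 3 of these groups the lanes held other strains, so lane and strain cannot be told apart. Only psvbiMead of 2878 days was on both lanes, with 1 frog on lane 1 and 5 on lane 2. The depositors list frog 121 at 547 days although its tank mates were 2059 days old. It was left out of every group unless stated. Its mean over the 410 CpGs was 0.692, below the lowest of the 7 TYR frogs of 547 days (0.713) and just above the highest of its 5 tank mates (0.686).

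The capture probes that cover 5 of the CpGs described most fully below are printed because they show the sequence around the largest falls and around 2 of the sites at which frogs of 1 cohort differed most. Each is the designed probe of the study, 5′ to 3′ as listed, with the CG of an early-falling CpG in capitals. The deposited position of a CpG lay 2 bases beyond the listed probe start plus the zero-based offset of the C for 3148 of 3179 measured CpGs in a listed probe, and 1 base beyond it for the other 31, so the capitals rest on that shift. Probes were listed for 206 of the 410 CpGs (50.2%).
Xenopus_Target3665, in clic4: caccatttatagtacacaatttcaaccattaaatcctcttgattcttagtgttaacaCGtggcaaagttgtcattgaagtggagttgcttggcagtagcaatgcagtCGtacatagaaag
Xenopus_Target3927, in dnajb4: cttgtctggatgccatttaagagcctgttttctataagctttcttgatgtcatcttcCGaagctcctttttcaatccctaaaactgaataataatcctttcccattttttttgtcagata
Xenopus_Target3696, outside genes on chromosome 3: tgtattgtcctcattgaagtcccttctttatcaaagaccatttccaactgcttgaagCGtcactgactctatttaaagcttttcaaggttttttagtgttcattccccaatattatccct
Xenopus_Target2017, in cadps2: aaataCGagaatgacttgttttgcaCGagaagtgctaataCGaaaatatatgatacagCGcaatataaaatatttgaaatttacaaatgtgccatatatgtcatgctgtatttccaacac
Xenopus_Target272, in ctps2: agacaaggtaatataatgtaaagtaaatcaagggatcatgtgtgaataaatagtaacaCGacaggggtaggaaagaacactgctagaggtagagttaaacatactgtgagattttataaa

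The fall itself was moderate at most of these CpGs. Y minus M had a median of 0.0623, quartiles of 0.0478 and 0.0886 and a highest value of 0.419 on the scale of fractions. It exceeded 0.1 at 70 CpGs and 0.2 at 2, both in clic4. Averaged over the 410 CpGs, the young adults stood at 0.737 ± 0.00803 (SD, n = 31 frogs), the 1.5- to 2.6-year adults at 0.693 ± 0.0332 (n = 41), the middle adults at 0.664 ± 0.0276 (n = 42), the 6.9- to 7.9-year adults at 0.659 ± 0.0196 (n = 26) and the old adults at 0.661 ± 0.0384 (n = 46). These are means over frogs. With every cohort weighted equally, the groups in the same order stood at 0.736, 0.696, 0.671, 0.659 and 0.647, so the old adults were then below the middle adults. The young frogs lay close together, between 0.717 and 0.752, whereas the old frogs ranged from 0.551 to 0.715. Over the CpGs that were neither early-falling nor of the germline pattern the means over frogs of the same groups were 0.851, 0.842, 0.841, 0.840 and 0.833. The number of frogs, strains and CpGs limits the precision of all these means, and the depth behind each single fraction is not in the table used.

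**Figure D1:**
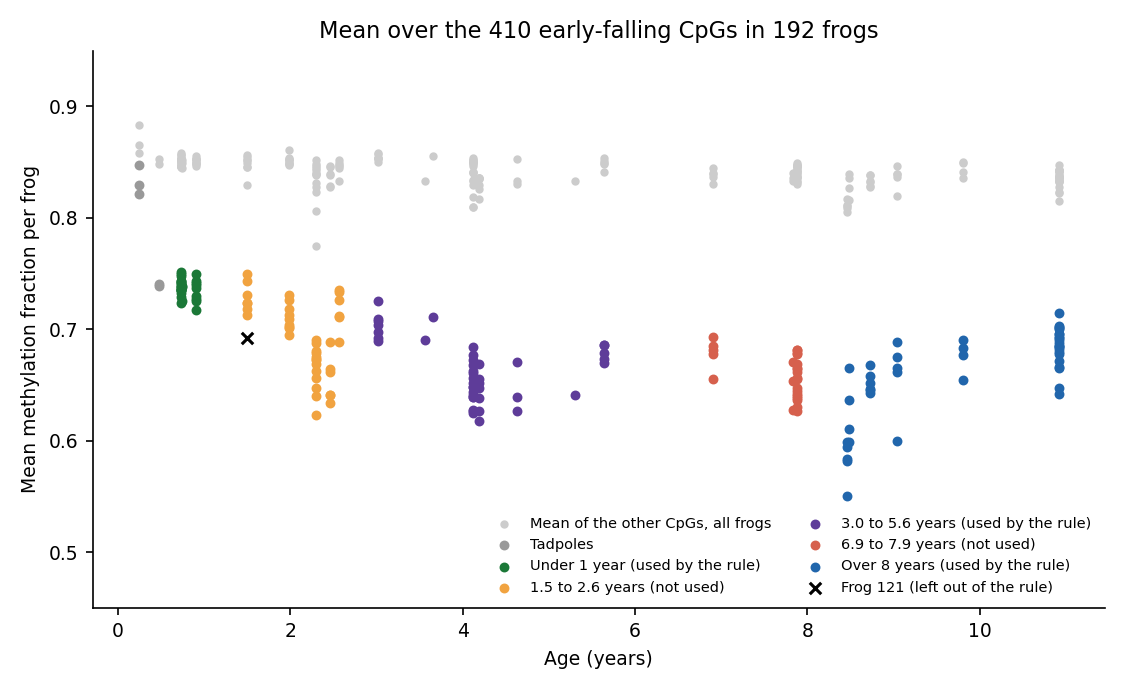
Mean methylation fraction of each of the 192 frogs over the 410 early-falling CpGs (coloured by age group) and over the other CpGs without the germline pattern (light grey), against age in years. The 31 young adults lie between 0.717 and 0.752, the frogs of 1.5 to 2.6 years spread from 0.623 to 0.749, and no group from 3.0 years on has a mean over frogs above 0.664.

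The young cohorts made up Y, so the rule largely set the counts given next, which are a description without a share over all CpGs. The 19 NIGERIAN F8 frogs lay above the middle adults at all 410 CpGs and by at least 0.04 at 376, the 9 SUPERMAN F8 frogs at 405 and 338, and the 3 Grngr frogs at 388 and 316. How many CpGs met the rule depended more on the older cohorts. Without the 22 Krieg frogs of 3987 days, the largest cohort of O, 213 CpGs met it, of which 134 were among the 410. With every cohort weighted equally in place of every frog, 223 met it and 115 were shared (28.0% of the 410 and 51.6% of the 223). With medians over frogs in place of means, 376 met it and 274 were shared (66.8% of the 410). With only lane 2 frogs for Y and M, 450 met it and 288 were shared. Without NXR 1111, 288 met it and 210 were shared, an alternative added after the data were seen.

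Just inside the limit on the fall lay chromosome 3 position 422292 near lmo3 (Y 0.824, M 0.784), chromosome 1 position 32812536 (0.887, 0.847) and chromosome 3 position 19631466 (0.786, 0.745). Just outside it lay chromosome 1 position 32827753 (0.815, 0.775), chromosome 2 position 33816008 (0.828, 0.788) and chromosome 7 position 9571058 (0.841, 0.801). The position on chromosome 2 lies in sez6 between 2 CpGs that passed. At the limit on the later change, chromosome 2 position 33816037 (M 0.802, O 0.822), chromosome 1 position 142371778 (0.699, 0.679) and chromosome 1 position 197904632 (0.830, 0.850) passed. Chromosome 6 position 7281271 (0.731, 0.711), chromosome 8 position 114753959 (0.729, 0.750) and chromosome 3 position 16442397 (0.190, 0.170) did not.

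The 2 largest falls lay within 51 bases of each other in the span of clic4, which encodes a chloride intracellular channel protein. At chromosome 2 position 89968485 (v10.0 genome, gene span 89963852 to 90014157) the young adults averaged 0.647 ± 0.0903 (SD, n = 31), with a lowest, median and highest frog of 0.371, 0.669 and 0.756. The middle adults averaged 0.228 ± 0.0851 (n = 42), with 0.108, 0.209 and 0.423, and the old adults 0.234 ± 0.0808 (n = 46), with 0.130, 0.207 and 0.452. Only the lower end of the young range met the upper end of the others, and the low young frogs were SUPERMAN F8 frogs, whose cohort mean was 0.563 against 0.683 in NIGERIAN F8. The 41 frogs of 1.5 to 2.6 years, which the rule did not use, ranged from 0.165 to 0.637 with a median of 0.357. Their cohort means ran from 0.478 in TYR through 0.341 in the Aequorin line and 0.327 in CMV MEM GFP to 0.265 in OLIG2 F1, and were 0.451 in WT Superman. Thus the intermediate ages lay between Y and M at this CpG, and the oldest of these cohorts was not the lowest. The neighbouring CpG at position 89968535, the second capitalised CG of the clic4 probe, ran in parallel, from 0.776 in Y to 0.534 at 1.5 to 2.6 years, 0.363 in M, 0.401 at 6.9 to 7.9 years and 0.349 in O.

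In cdk5rap2, which encodes a centrosomal protein that recruits microtubule-nucleating complexes, all 3 measured CpGs of a 35-base stretch met the rule. At chromosome 8 position 38272527 the lowest, median and highest young frog were 0.532, 0.647 and 0.719, against 0.340, 0.434 and 0.617 in the middle adults. The median and highest old frog were 0.453 and 0.602, and the groups overlapped. The neighbours at 38272506 and 38272540 fell from 0.732 to 0.606 and from 0.470 to 0.318. All 3 CpGs were higher in tadpoles (0.831, 0.704 and 0.709 in order of position) than in M.

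The CpG of dnajb4, which encodes an HSP40-type cochaperone, at chromosome 4 position 80150304 was already lower in young adults than the CpGs above. The lowest, median and highest frog were 0.263, 0.386 and 0.472 in Y, 0.145, 0.207 and 0.382 in M and 0.125, 0.212 and 0.339 in O. Its tadpole cohorts stood far apart, at 0.825 ± 0.0147 (n = 3) at 89 days and 0.397 (frogs at 0.370 and 0.424) at 177 days. The older tadpoles were thus within the range of the young adults, although whole animals were used for the one and webbing for the other.

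Outside genes, chromosome 3 position 114143271 (probe Xenopus_Target3696) fell from 0.654 ± 0.0322 (n = 31) in Y to 0.495 ± 0.0744 (n = 42) in M and 0.476 ± 0.0763 (n = 46) in O. The lowest, median and highest frog were 0.567, 0.665 and 0.707 in Y and 0.346, 0.482 and 0.669 in M, so the groups overlapped. Its tadpoles were higher, at 0.788 ± 0.0250 (n = 3) and 0.743 (n = 2), and its cohorts of 1.5 to 2.6 years ran from 0.465 in OLIG2 F1 to 0.664 in TYR.

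At another CpG with a large fall, the fall was carried by part of the frogs. In ctps2, which encodes a CTP synthase, chromosome 2 position 30310230 was above 0.7 in all 31 young adults (lowest 0.863, highest 0.941). In the middle adults 27 frogs were above 0.7 and 15 between 0.3 and 0.7, and in the old adults 32 and 14. Of the 41 frogs of 1.5 to 2.6 years 23 were above 0.7, 16 between 0.3 and 0.7 and 2 below 0.3. Within the 13 CMV MEM GFP frogs the values ran from 0 to 0.926. Median values differed little between the groups, at 0.901 in Y, 0.870 in M and 0.861 in O, whereas the means were 0.901, 0.746 and 0.756. The CpG passed the filter on the germline pattern because fewer than 3 frogs lay below 0.006, and whether the C itself differed among these frogs was not tested.

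At 2 more of the CpGs with large falls, the lowest middle adults lay far below the young range. Chromosome 1 position 212272064, 502 bases from LOC101733468, had a lowest, median and highest frog of 0.772, 0.810 and 0.841 in Y and of 0.246, 0.757 and 0.819 in M. Unlike in ctps2, its median in M was below every young frog. In gpr1, a receptor of the chemoattractant protein chemerin, chromosome 9 position 50625209 ranged from 0.948 to 1 in Y and from 0.627 to 0.991 in M. In LOC100496393, chromosome 5 position 60223418 was spread in the young adults too (lowest 0.463, median 0.647, cohort means of 0.673 to 0.836), as was siglecl2, named as a member of the sialic acid-binding lectin family, at chromosome 7 position 121350108 (frogs from 0.572 to 0.903). Across all 410 CpGs, the range of frogs within at least 1 of 24 adult cohorts of 3 or more frogs exceeded 0.3 at 84 (20.5%), against 14.9% of all CpGs without the germline pattern and 21.1% of all 6717. The median of the widest range was 0.221 at the 410 CpGs, 0.145 at CpGs without the germline pattern and 0.154 at all. The share was 44.7% among 152 CpGs that were level from Y to M and fell by at least 0.04 from M to O, and 60.5% among 172 CpGs that fell by at least 0.04 in both intervals. No test was made of these shares.

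All 4 measured CpGs of a 54-base stretch in cadps2, which encodes an activator of dense-core vesicle release, met the rule (probe Xenopus_Target2017). At its last CpG, position 70039743 of chromosome 3, the lowest, median and highest frog were 0.580, 0.737 and 0.789 in Y and 0.319, 0.567 and 0.703 in M, with a median of 0.570 and a highest of 0.743 in O. The frogs between these ages did not follow: those of 1.5 to 2.6 years averaged 0.444 ± 0.222 (n = 41), below M, and ranged from 0.0564 to 0.744. Their cohort means were 0.243 in CMV MEM GFP and 0.377 in TYR but 0.678 in WT Superman. The Krieg frogs of 2523 days averaged 0.342 and folMead 0.326. The first CpG of the stretch, at 70039690, was above 0.7 in all 31 young adults, whereas 7 of the 41 frogs of 1.5 to 2.6 years lay below 0.3 there and 13 between 0.3 and 0.7.

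**Figure D2:**
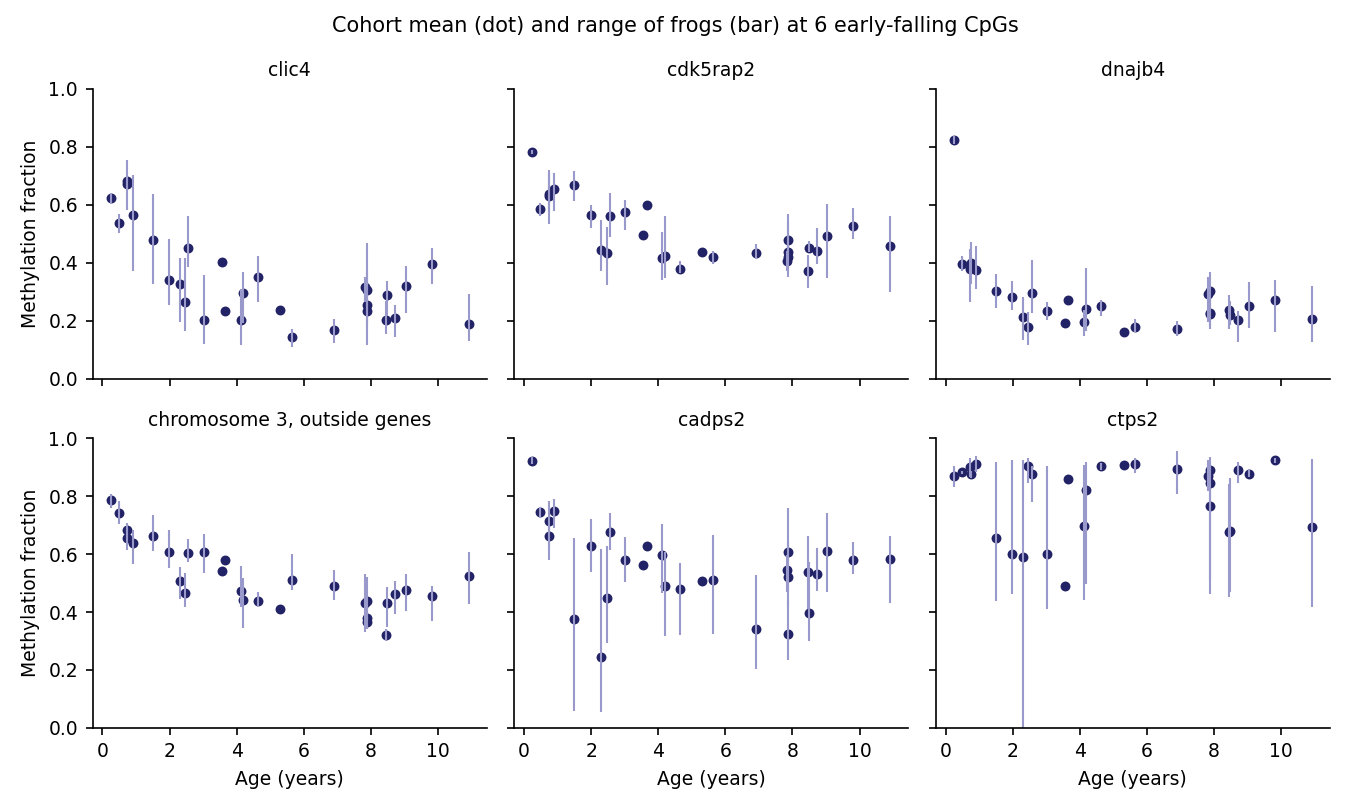
Methylation fraction at 6 early-falling CpGs against age in years, each dot the mean of a strain and age cohort and each bar the range from its lowest to its highest frog (frog 121 left out). At clic4, cdk5rap2, dnajb4 and the CpG outside genes the cohort means from 3 years on are mostly below those under 1 year, while at cadps2 and ctps2 frogs of 1 cohort differ widely, from 0 to 0.926 in CMV MEM GFP at ctps2.

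Most early-falling CpGs had no other early-falling CpG nearby, although such neighbours were more frequent than among all CpGs. With gaps under 300 bases, they formed 338 runs, of which 287 held 1 CpG, 39 held 2, 7 held 3, 3 held 4 and 2 held 6. Leaving out partners 1 base away, 125 of them (30.5%) had no other CpG measured within 300 bases, against 15.4% of all CpGs in the table. Another early-falling CpG lay within that distance at 121 (29.5%), against 12.6% of all CpGs. The median number of measured CpGs that near was 1, against 3 for all CpGs. The 725 measured CpGs that lay that near to one without meeting the rule had a median Y minus M of 0.00933, against 0.00929 over all CpGs. Those 725 were picked for not meeting the rule, whereas all CpGs include the early-falling ones. The medians therefore cannot show how far a fall reached. Deviations of single frogs from their cohort means were shared within runs. Over 191 frogs of 29 cohorts, the median Pearson r of these deviations was 0.65 for 105 pairs of CpGs in 1 run (pairs 1 base apart left out) and 0.14 for 83737 pairs in different runs. CpGs of a run are often read from the same DNA fragments and all CpGs of a frog share its library, so these values are a description.

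The longest run, chromosome 10 from 8382 to 8736, lay 3025 to 3379 bases from LOC101731736, annotated as a long noncoding RNA, and held 6 early-falling CpGs of 8 measured. Their Y means ran from 0.265 to 0.763, and their falls from 0.0646 to 0.124, the largest at position 8651 (0.551 to 0.428). A second run of 6 among 11 measured CpGs lay on chromosome 2 from 86245907 to 86246232, 15118 bases from stk40, which encodes a serine/threonine kinase-like protein, with falls from 0.0449 to 0.0931. In pde3a, a cyclic nucleotide phosphodiesterase, 4 of 6 measured positions from 904230 to 904312 of chromosome 3 met the rule, averaging 0.825 in Y, 0.758 in M and 0.747 in O. These 4 are 2 pairs of positions 1 base apart, as the C of either strand of 1 CpG would be. The table holds 104 such pairs, 3 of them with both positions early-falling. In sez6, which encodes a membrane protein of neurons, 4 of 5 CpGs in 35 bases fell by only 0.0404 to 0.0491 and regained 0.0182 to 0.0197 by old age, close to the limit of 0.02.

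By the gene spans of the RefSeq annotation of UCB_Xtro_10.0, 172 of the 410 CpGs (42.0%) lay within a gene, against 37.7% of all CpGs measured. The 172 were spread over 134 genes. Of these 5 (pde3a, cdk5rap2, cadps2, sez6 and LOC493382) held 4, 3 held 3, 17 held 2 and 109 held 1. The early-falling share of the measured CpGs was lowest on chromosome 1 (92 of 1998) and highest on chromosome 10 (17 of 156, 10.9%). Their usual level was intermediate: the median over CpGs of the adult median was 0.727 (quartiles 0.621 and 0.796), against 0.898 for all CpGs. It lay between 0.5 and 0.8 at 64.6% of them and 19.7% of all CpGs, and above 0.8 at 22.9% and 72.1%. An intermediate level was not particular to them. The 172 CpGs that fell in both intervals had a median of 0.696, with 59.9% between 0.5 and 0.8. The 152 that fell only from M to O had 0.869 and 30.3%. Since a fraction near 1 leaves less room for frogs to differ, the spread between frogs has to be read with that level. At the early-falling CpGs the median SD was 0.0303 over the 19 frogs of 269 days, against 0.0172 for all CpGs. Over the 22 frogs of 3987 days it was 0.0453, against 0.0236. At the CpGs that fell in both intervals these SDs were 0.0272 and 0.0654, and at those that fell only from M to O 0.0242 and 0.0560.

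The adults of 1.5 to 2.6 years ask where the fall lay in time, since the rule did not use them. Their mean was between M and Y at 373 of the 410 CpGs, at or below M at 25 and at or above Y at 12. The rule set Y above M by at least 0.04 at each of these CpGs, which makes a mean between them likelier. The same count over all CpGs was not made. By cohort, however, the adults of 1.5 to 2.6 years did not form 1 sequence with age. The 7 TYR frogs of 547 days averaged 0.729 ± 0.0133 over the 410 CpGs and had passed a median of -3.02% of the way from Y to M. The 9 Aequorin frogs of 726 days averaged 0.711 ± 0.0122 and had passed 30.5%. The 13 CMV MEM GFP frogs of 841 days averaged 0.666 ± 0.0196 and the 6 OLIG2 F1 frogs of 899 days 0.655 ± 0.0205, with 93.5% and 118% passed. The 6 WT Superman frogs of 937 days averaged 0.718 ± 0.0177 with 25.9% passed, so the oldest cohort of the group was higher than the 2 before it. TYR, CMV MEM GFP and OLIG2 F1 were on lane 2, and the Aequorin and Superman cohorts on lane 1. Over the other CpGs CMV MEM GFP and OLIG2 F1 were also the lowest of the 5, at 0.832 and 0.838 against 0.846 to 0.852. The part of lane or of a general shift in these cohort differences was not tested.

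**Figure D3:**
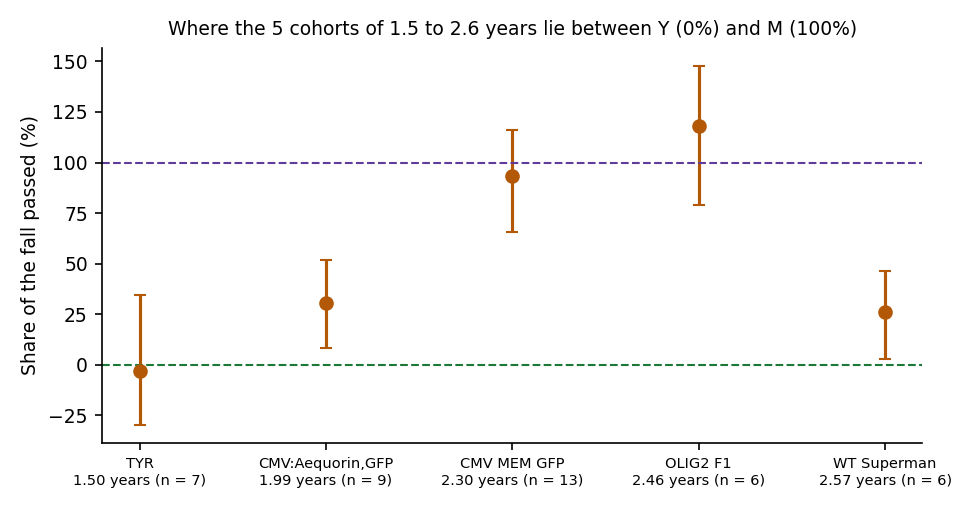
Share of the way from Y (0%, green line) to M (100%, purple line) that each cohort of 1.5 to 2.6 years had passed, as the median over the 410 CpGs (dot) with the quartiles (bars). TYR lies at -3.02%, the Aequorin line at 30.5%, CMV MEM GFP at 93.5%, OLIG2 F1 at 118% and WT Superman at 25.9%.

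A slope on age across these 5 cohorts, fitted with limma on the log2 logit of the cohort means, was negative at 349 of the 410 CpGs (85.1%), against 75.6% of all 6717. The median slope was -0.40 per year on the log2 logit scale, against -0.21 over all CpGs. No early-falling CpG passed an adjusted p of 0.05 in either direction, nor did any other CpG (0.0%), and the smallest adjusted p was 0.781. At an unadjusted p under 0.05, 21 fell (5.12%, against 2.74% of all) and 3 rose (0.732%, against 1.58%). The smallest p among those that fell belonged to chromosome 6 position 76762571, 21509 bases from the zinc transporter gene slc39a6, with a slope of -1.45 (SE 0.25, adjusted p = 0.781, limma). In kirrel3, which encodes an adhesion protein of synapses, the slope at chromosome 7 position 71007430 was -1.13 (SE 0.24), and at chromosome 10 position 7030 it was -1.24 (SE 0.27). The rising exception among the 4 smallest p was chromosome 7 position 19765542 in LOC108648045 (2.17, SE 0.51). Every one of the 5 cohorts moved this count. Without WT Superman 160 early-falling CpGs fell at an unadjusted p under 0.05 (39.0%, against 7.91% of all CpGs), whereas 2 fell without TYR (0.488%, against 1.01% of all). The counts were 6 without OLIG2 F1 (1.46%, against 1.61%) and 9 without the Aequorin line (2.20%, against 1.52%). The count was 11 without CMV MEM GFP (2.68%, close to the 2.486% of all CpGs). In each of these fits 0 passed after adjustment.

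The adults of 6.9 to 7.9 years were compared with those of 1.5 to 2.6 years because both sets of cohorts lay outside the rule. Their strains did not all lie outside it, since Krieg, Aequorin and Superman frogs of other ages entered O, M and Y. The older adults were lower at 374 of the 410 CpGs (91.2%), against 50.8% of all CpGs. The median difference of the cohort means was -0.29 on the log2 logit scale, against -0.00429 over all CpGs. No single early-falling CpG passed the test. With 5 cohorts against 5 and limma's adjustment over all 6717, 0 were called lower, against 3 CpGs in all (0.0447%), and 0 higher, against 4 in all (0.0596%), or 0.104% of all CpGs in either direction. The smallest adjusted p was 0.187. At an unadjusted p under 0.05, 97 were lower (23.7%, against 7.94% of all CpGs) and 0 higher (3.26% of all). On the scale of fractions over frogs, the older adults were lower at 366 (89.3%, against 44.4% of all), by a median of 0.0335.

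The smallest p in this comparison belonged to pde3a at chromosome 3 position 904230. Its cohort means ran from 0.795 to 0.820 at 1.5 to 2.6 years and from 0.756 to 0.776 at 6.9 to 7.9 years, without overlap (difference -0.37, SE 0.08, adjusted p = 0.187, limma). At chromosome 3 position 27077779, 5243 bases from pcdha8, a clustered protocadherin of neurons, the cohort means ran from 0.662 to 0.773 and from 0.511 to 0.646 (-0.96, SE 0.22, adjusted p = 0.197, limma). In iqch, at chromosome 3 position 117449274, they ran from 0.748 to 0.834 and from 0.699 to 0.721 (-0.58, SE 0.14). In shank3, a scaffold of the postsynaptic density, position 89608569 of chromosome 3 gave 0.750 to 0.825 and 0.689 to 0.768, which overlapped (-0.58, SE 0.15). For clic4 the difference was -0.80 (SE 0.31, adjusted p = 0.394, limma), and for cdk5rap2 -0.58 (SE 0.25, adjusted p = 0.426). dnajb4 differed by -0.09 (SE 0.26), less than its standard error.

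At 36 early-falling CpGs (8.78%, against 49.2% of all) the fitted mean was higher in the older group. On the scale of fractions the largest such differences were in ctps2, from 0.691 to 0.849, at chromosome 3 position 422325, 3382 bases from lmo3, a LIM-only transcription cofactor, from 0.646 to 0.797, at cadps2 position 70039690, from 0.575 to 0.687, and at chromosome 1 position 33168376, from 0.865 to 0.914. Their fitted differences were 1.14 (SE 0.59), 0.89 (SE 0.53), 0.54 (SE 0.83) and 0.66 (SE 0.31), and none passed (adjusted p from 0.454 to 0.799, limma). The first 3 of them are among the 6 early-falling CpGs with the widest range of frogs within a cohort, which reached 0.926 in ctps2.

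The count of calls depended on the unit of the fit. Treating frogs as the units with the cohort as a random block, limma called 60 CpGs lower (14.6%, against 4.35% of all CpGs). With frogs taken as independent it called 204 lower (49.8%, against 15.0% of all) and 11 higher (8.74% of all). Within lane 1 cohorts the older adults were lower at 376 of the 410 (64.2% of all CpGs) and within lane 2 cohorts at 323 (35.8% of all). Within lane 1, 107 were lower at an unadjusted p under 0.05 (26.1%, against 6.04% of all), but within lane 2 only 6 (1.46%, against 2.28% of all), a share below that of all CpGs. Lane 1 held 2 younger and 4 older cohorts, 1 of the latter a single psvbiMead frog, and lane 2 held 3 and 2. Fits on so few cohorts have little power, so these counts cannot be compared between lanes. Without single cohorts the count of 97 ran from 45 without WT Superman (5.39% of all CpGs) to 187 without OLIG2 F1 (10.9% of all).

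**Figure D4:**
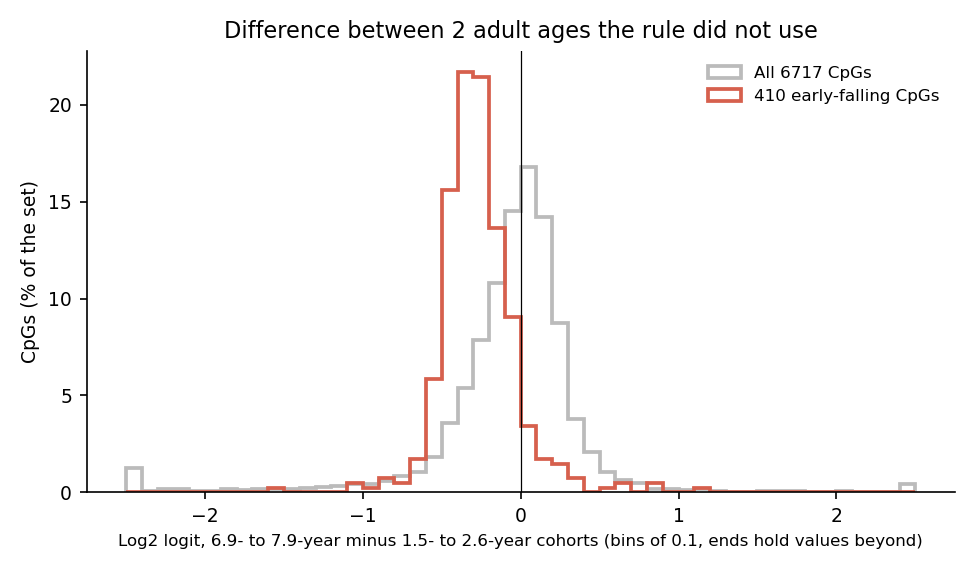
Distribution of the difference in log2 logit between the 6.9- to 7.9-year and the 1.5- to 2.6-year cohorts, as the percentage of the 410 early-falling CpGs (red) and of all 6717 CpGs (grey) in each bin of 0.1. The red curve is centred near -0.29 and the grey one near 0, and no red CpG passed the test.

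From middle age on the level was flat by the rule, which took means over frogs. With every cohort weighted equally, the mean over the 410 CpGs was 0.671 in M and 0.647 in O. The 6.9- to 7.9-year adults were within 0.02 of M at 230 of the 410 CpGs and within 0.02 of O at 260. The same counts over all CpGs were not made, so whether the early-falling CpGs were more or less level than the rest is not known. The cohorts nevertheless differed. The mean over the 410 CpGs ran from 0.582 ± 0.0187 (n = 5) in 7M8FMead of 3090 days to 0.685 ± 0.0179 (n = 22) in Krieg of 3987 days, the oldest frogs. The former cohort was the lowest over the other CpGs as well (0.811). The order of the other old cohorts was hbrMead 0.628 ± 0.0296 (n = 4), johMead 0.652 ± 0.00938 (n = 6), 8FMead 0.658 ± 0.0342 (n = 5) and Grngr 0.676 ± 0.0153 (n = 4), so their means rose with age. Neighbours in this order differed by less than the larger of their SDs, but hbrMead and johMead differed by more than the SD of johMead. Among the middle adults, Kellr of 1105 days (0.704 ± 0.0120, n = 7), the single Aequorin frog (0.711) and the single sox3 F0 frog (0.691) were above the cohorts from 1507 to 1937 days (0.641 to 0.651), but the oldest middle cohort, tubb2b GFP of 2059 days, was at 0.679 ± 0.00746 (n = 5), so the means did not fall steadily with age within M.

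The 3 strains of 2878 days were compared to show how far frogs of 1 age differed. Over the 410 CpGs, folMead averaged 0.657 ± 0.0156, psvbiMead 0.667 ± 0.0108 and the CAGGS-SB10;cryga:RFP strain 0.643 ± 0.0199 (n = 6 frogs each). Their frogs overlapped, with ranges of 0.639 to 0.679, 0.656 to 0.681 and 0.626 to 0.682. At single CpGs, 80 early-falling CpGs (19.5%) differed among the strains at an adjusted p under 0.05 (limma F test on single frogs), against 12.9% of all CpGs. Without adjustment 150 differed at a p under 0.05 (36.6%), against 27.8% of all. Each strain was held in 1 tank, and folMead was on lane 2, the CAGGS-SB10;cryga:RFP strain on lane 1 and all but 1 psvbiMead frog on lane 2, so strain, tank and lane cannot be told apart. Between folMead and psvbiMead 28 differed (6.83%, against 5.20% of all CpGs), and the other 2 pairs of strains gave 27 (6.59%, against 4.88%) and 38 (9.27%, against 6.13%).

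Lines held at 2 ages compare ages within a name. For Superman the labels give SUPERMAN F8 and WT Superman, and taking these as 1 line is an assumption. The frogs of a line also differ in tank and mostly entered the rule, so no test was made. In the Kellr line, both of whose cohorts belong to M and were on lane 1, the frogs fell from 0.704 ± 0.0120 at 1105 days to 0.644 ± 0.0174 at 1532 days (n = 7 each). The lowest, median and highest frog were 0.690, 0.704 and 0.725 at the younger and 0.618, 0.647 and 0.669 at the older age, without overlap. The older frogs were lower at 358 of the 410 CpGs (87.3%), against 84.6% of all CpGs, and every older frog was below every younger one at 93 (22.7%), against 13.2% of all. Every older frog was above every younger one at 1, against 0.402% of all. The median fall was 0.0661 at the early-falling CpGs and 0.0239 over all CpGs.

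In the Superman line, where the 937-day cohort was not used by the rule, 9 frogs of 332 days averaged 0.734 and 6 frogs of 937 days 0.718. The lowest, median and highest frog were 0.717, 0.737 and 0.750 and then 0.689, 0.719 and 0.735, so they overlapped widely. The older frogs were lower at 302 CpGs (73.7%, against 64.2% of all) and without overlap at 3 (0.732%, against 0.179%). In the Grngr line 3 frogs of 273 days (0.725, 0.738 and 0.739) were above all 4 frogs of 3583 days (0.655 to 0.690), with 359 CpGs lower (87.6%, against 53.6%) and 167 without overlap (40.7%, against 11.9%). All older Grngr frogs were above all younger ones at 8 CpGs, against 7.01% of all. These 2 cohorts belong to Y and O and lie on different lanes.

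In the Krieg line, 5 frogs of 2523 days averaged 0.678 ± 0.0140 and 22 frogs of 3987 days 0.685 ± 0.0179. The older frogs were lower at 183 CpGs (44.6%, against 59.7% of all), without overlap at 1 (0.244%, against 0.997%) and higher without overlap at 3 (0.732%, against 0.938%). Between these ages the frogs of this line overlapped at nearly every CpG. The Aequorin line had 1 older frog, of 1337 days, at 0.711, the same as the mean of its 9 frogs of 726 days (0.711), and it was lower at 196 of the 410 CpGs (47.8%, against 46.2%).

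**Figure D5:**
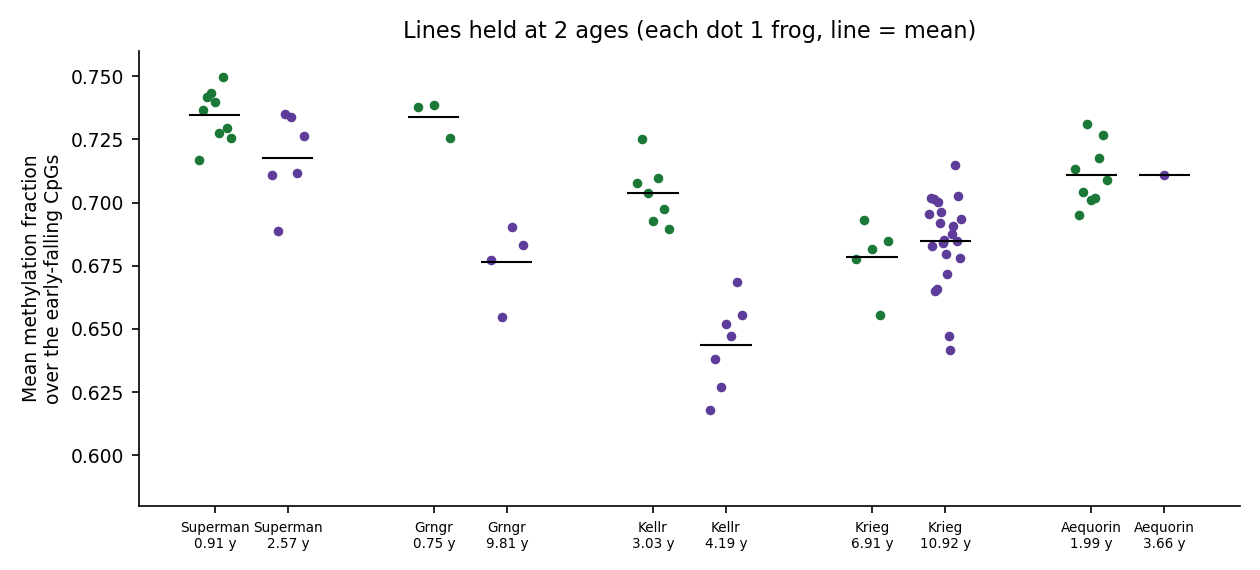
Mean methylation fraction over the 410 early-falling CpGs for each frog of 5 lines held at 2 ages, given in years under each line (green younger, purple older, black bar the mean). The 7 older Kellr frogs (0.618 to 0.669) all lie below the 7 younger ones (0.690 to 0.725), whereas the Superman and Krieg frogs overlap.

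Before adult life, the 5 tadpoles were compared with the 1.5- to 2.6-year adults. Whole animals were used for tadpoles and webbing for adults, and strains differed, so stage, tissue and strain cannot be told apart. Over the 410 CpGs the 3 tadpoles of 89 days stood at 0.822, 0.830 and 0.847 and the 2 of 177 days at 0.739 and 0.740, the latter within the range of the young adults. The younger tadpoles were above Y at 342 of the 410 CpGs and above the older tadpoles at 356, and the older tadpoles were above Y at 236. Y entered the rule, and these counts were not made over all CpGs. Over the CpGs that were neither early-falling nor of the germline pattern, the younger tadpoles were also higher. They stood at 0.869, against 0.851 in the older tadpoles and 0.851 in Y. Against the adults of 1.5 to 2.6 years the tadpole cohorts were higher at 382 CpGs (93.2%), against 54.4% of all, with a median difference of 0.68 on the log2 logit scale, against 0.05.

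No early-falling CpG passed this test either. With 2 cohorts against 5, limma called 0 higher in tadpoles, against 6 CpGs in all (0.0893%), and 0 lower, against 1 in all (0.0149%), or 0.104% of all CpGs in either direction, and the smallest adjusted p was 0.231. At an unadjusted p under 0.05, 169 were higher (41.2%, against 10.9% of all) and 0 lower (3.89%). The smallest p belonged to ripor2 at chromosome 6 position 96777494. Its tadpoles averaged 0.873 at 89 days and 0.815 at 177 days, against cohort means of 0.656 to 0.709 at 1.5 to 2.6 years (difference 1.31, SE 0.22, adjusted p = 0.231, limma). Next came chromosome 6 position 35242928, 20137 bases from phf14, which encodes a PHD finger protein (1.32, SE 0.23), chromosome 10 position 8736 of the longest run (1.10, SE 0.21) and chromosome 8 position 32936012 (1.42, SE 0.28). The 177-day cohort decided the count: without it, the 89-day tadpoles alone, assumed to vary like the adult cohorts, gave 137 higher (33.4%, against 10.6% of all CpGs) and 2 lower (3.26% of all) after adjustment. Without the 89-day tadpoles 0 passed, and 33 were higher at an unadjusted p under 0.05 (8.05%, against 4.79% of all).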

How the data were processed

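DNA from webbing punches of 187 adult frogs and from 5 whole tadpoles was captured with designed probes and bisulfite sequenced. Per the labels and methods, the authors trimmed reads with fastp and used BiSulfite Bolt for alignment against genome release v10.0 and for methylation calls. The paper names SAMtools 1.11 for the reads of its chromatin analysis. For the frogs, the authors kept CpGs above a minimum coverage in every frog. They deposited the methylation fraction of each CpG and frog, with no further normalization. Libraries were pooled for capture and for the lanes after indexing, and values of different frogs were not combined. All 192 deposited columns hold values from 0 to 1 with 0 missing, and 0 columns of per-sample values were left unused. Read counts per CpG are not in the table, so no intervals on single values are given. No pair of frogs had identical values. Groups come from the labels (age, strain, tissue), and 3 frogs whose titles name tadpoles are labelled as webbing of 273 days and were used as adults. Lane and tank come from the sample list of the study.

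The members and lists were chosen with earlier results of these data known. Tests used limma 3.58.1 in R 4.3.3 on cohort means (single frogs for the strains of 1 age) of log2((f + 0.001)/(1 - f + 0.001)), with Benjamini-Hochberg adjustment over all 6717 CpGs at 0.05. The fits were tested on simulated data. Other steps used Python 3.11.15, numpy 2.4.6, pandas 2.3.3 and matplotlib 3.10.9. The CpGs named are the 8 with the largest Y minus M (1 per run), the 4 with the smallest p in each cohort fit (1 per run), those nearest each threshold, the 5 runs with the most CpGs, up to 8 in genes by Y minus M, and the 4 with the largest rise between the 2 adult ages tested. The in-gene list was meant for exons and gene starts, which the gene spans used here do not give, so CpGs within a span were taken in their place after the data were seen. Other CpGs were named after their values were seen. Base composition around the CpGs was not compared, because the probe list used here covered 50.2% of them, under the 80% required. That list held fewer probes than the targeted regions the paper reports.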

Additional observations from a re-analysis of the deposited data

Results flagged for a closer look

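Of 22 groups of 4 to 10 frogs or cohorts examined for a value far from the rest, 1 held such a value. Among the 6 frogs of Xtr.Et(CAGGS-SB10;cryga:RFP)Mead at 2878 days, the highest mean over the 410 CpGs was 0.682, while the nearest of the other 5 was 0.642. Its gap made up 0.715 of the whole range of the 6 frogs. By chance about 1 group in 20 would show such a value.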

How the results depend on the processing

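The number of CpGs that met the rule moved by more than 1.5 times under 3 settings: 223 with means over cohorts, 215 with M minus O of at most 0.01, and 213 without the Krieg cohort of 3987 days. A similar number can still hold other CpGs: with medians over frogs 376 met the rule, of which 274 were shared. Leaving out single cohorts gave 213 to 497, the highest without Kellr of 1105 days. Leaving out the cohorts of M and the other cohorts of O was chosen after seeing the data. For the 6.9- to 7.9-year adults, those lower after adjustment were 60 with a random block per cohort (4.35% of all CpGs) and 204 with single frogs (15.0% of all), with 11 higher (8.74% of all), and 0 in every fit without one cohort. At an unadjusted p under 0.05 they were 192 with the random block (12.5% of all CpGs), 258 with single frogs (20.2%) and 6 in lane 2 (2.28%). Without single cohorts they ran from 45 without WT Superman (5.39% of all) to 187 without OLIG2 F1 (10.9%). They were 49 without TYR (5.88%) or the Aequorin line (5.43%), 50 without the CAGGS-SB10;cryga:RFP strain (5.69%) and 60 without folMead (6.92%). By the mean, 354 (without TYR, 46.9% of all CpGs) to 380 (without CMV MEM GFP, 60.2% of all, or without psvbiMead, 54.9%) were lower without one cohort. For tadpoles, those higher after adjustment were 217 with the random block (12.4% of all CpGs), 281 with single frogs (18.9% of all, with 2 lower against 4.85% of all) and 0 to 137 without one cohort (0 to 2 lower), and at an unadjusted p under 0.05 they were 271, 301, 105 in lane 2 and 33 to 255, the lowest without the 89-day and the highest without the 177-day tadpoles. Of all CpGs, 18.4%, 24.4% and 6.21% were higher in tadpoles at that p with the random block, with single frogs and in lane 2. The shares of all were 4.79% without the 89-day and 19.4% without the 177-day tadpoles. By the mean, 320 (without the 89-day tadpoles, 58.4% of all CpGs) to 385 (without WT Superman, 54.4% of all) early-falling CpGs were higher in tadpoles without one cohort. For the slope, 14 fell with the random block (0.655% of all CpGs) and 3 rose (0.476%), 200 fell (16.2% of all) and 8 rose (4.76%) with single frogs, and 0 without one cohort after adjustment. At an unadjusted p under 0.05 they were 148 (9.78% of all), 244 (29.7%), 34 on fractions (2.55%) and 2 to 160 (2 without TYR, 6 without OLIG2 F1, 9 without the Aequorin line, 11 without CMV MEM GFP, 160 without WT Superman), and 299 to 371 fell by the mean without one cohort. The strain test called 80 with 3 strains and 27 to 38 with 2 (4.88% to 6.13% of all CpGs). The cause of these changes was not tested, except that the single-frog fits count frogs of 1 tank as independent and the 2-strain fits use fewer frogs. No paired analysis was possible because the labels carry no replicate numbers and the numbers used only follow accession order. The depth behind single values is not in the table and its part was not tested.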
